A study of Mus musculus with 4 samples.

Results

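The proteasome subunit genes described here are those whose name on the array begins with Psma, Psmb, Psmc, Psmd, Psme or Psmf followed by a number, with the interferon-inducible subunits Psmb8 and Psmb9 left out. They had 64 of the 41174 probes that are no control spots, under 42 gene names. Their RNA was measured on 4 Agilent arrays in B16-F10 cells, a mouse melanoma line grown in culture. Cells given an agonist goat polyclonal antibody against mouse TIM3 were labelled with Cy5 and set, on the same array, against Cy3-labelled cells of their own passage given unspecific goat IgG, both at 15 ug/ml for 2 h. The replicates are passages 14, 16, 18 and 19 of 1 line, numbered 1 to 4, so p-values measure the spread between passages and nothing wider. The protocol field for the antibody is not repeated for replicate 3, whose source label names the antibody. The dyes were never exchanged, so an effect of the antibody and an effect of the dye on a probe cannot be told apart.

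The proteasome is the large protease that degrades proteins tagged with ubiquitin in the cytosol and nucleus. Its barrel-shaped 20S core is built from outer rings of alpha subunits, which gate the entry, and inner rings of beta subunits, some of which cut the substrate. A 19S particle caps the barrel: its ATPases unfold and feed in the substrate, and its other subunits bind ubiquitin chains, remove them and form the lid. Other caps, assembly factors and an inhibitor bind the same core. When proteasome activity falls short, cells are known to raise the genes of many subunits together through the transcription factor NRF1, encoded by Nfe2l1.

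A ratio below is the log2 of the anti-TIM3 signal over the IgG signal, so a value above 0 is a higher signal after anti-TIM3. A probe is said to have risen or fallen where limma's adjusted p, over all 26545 tested probes, was under 0.05. Of those probes, 14.2% rose and 13.6% fell. Between 21151 and 22086 probes stood well above background in the IgG channel of an array, and between 25703 and 28400 in the anti-TIM3 channel. The 7 melanocyte markers (Tyr, Tyrp1, Dct, Pmel, Mlana, Mitf and Sox10) were all above background in the IgG channel on every array, while the leukocyte marker Ptprc did not pass the filter on dim signal. Of the markers of other cells, 3 of 6 for T cells, 4 of 6 for macrophages, 3 of 4 for fibroblasts and 0 of 3 for endothelium passed it, and 2 of each of the first 3 lists stood above background in the IgG channel on every array.

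Most proteasome probes were not called after anti-TIM3, and those that were called mostly fell by a small amount. RNA of whole cultures was measured, so fewer cells making a transcript and less of it per cell cannot be told apart. Of the 64 probes, 61 passed the filter on dim signal, and of these 1 rose, 15 fell and 45 were not called. Called in either direction were 16 of 61, where 27.8% of all tested probes were called. The shares are 1.64% risen and 24.6% fallen, against 14.2% and 13.6% of all tested probes. The mean ratios of the 61 probes ran from -0.41 to 0.20, with a median of -0.05 against 0.01 for all tested probes. On all 4 arrays 21 probes were below 0 and 7 were above 0, where 22.9% and 24.7% of all tested probes did so. No proteasome probe was saturated on any array.

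The direction of these changes rested on correcting each array for brightness by loess. With each array centred on its median instead, all tested probes had a median of 0.15, the proteasome genes one of 0.46, no probe was called by limma (10 had an unadjusted p under 0.05, all higher) and 10 of the 16 called probes changed sign. In the authors' own processed signals, tested the same way, 13 proteasome probes fell and 1 rose, against 8.96% and 10.8% of all tested probes. With the remaining trends on brightness and base content removed from each array, 18 fell and 4 rose, against 13% in either direction over all tested probes. No call of a proteasome probe passed limma's test against a minimum change of 1.2-fold, where 2 had an unadjusted p under 0.05.

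Taken by gene, with the brightest tested probe standing for each, 1 of 41 genes rose, 8 fell and 32 were not called. The median ratio was -0.02, and the median of mean log2 intensity was 14.1. Of all tested probes 13.6% fell, and of those between 12 and 16 in intensity 20.8% fell. The 8 that fell are Psmb5, Psmb7, Psmc1, Psmc3, Psmd4, Psmd7, Psmd13 and Psme4, and the 1 that rose is Psmd1. Psmc2, Psmc5, Psmd2, Psmd12 and Psmf1 each had a fallen probe that was not their brightest. The plot of every gene's ratio on each array sets these values side by side.

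**Figure D1:**
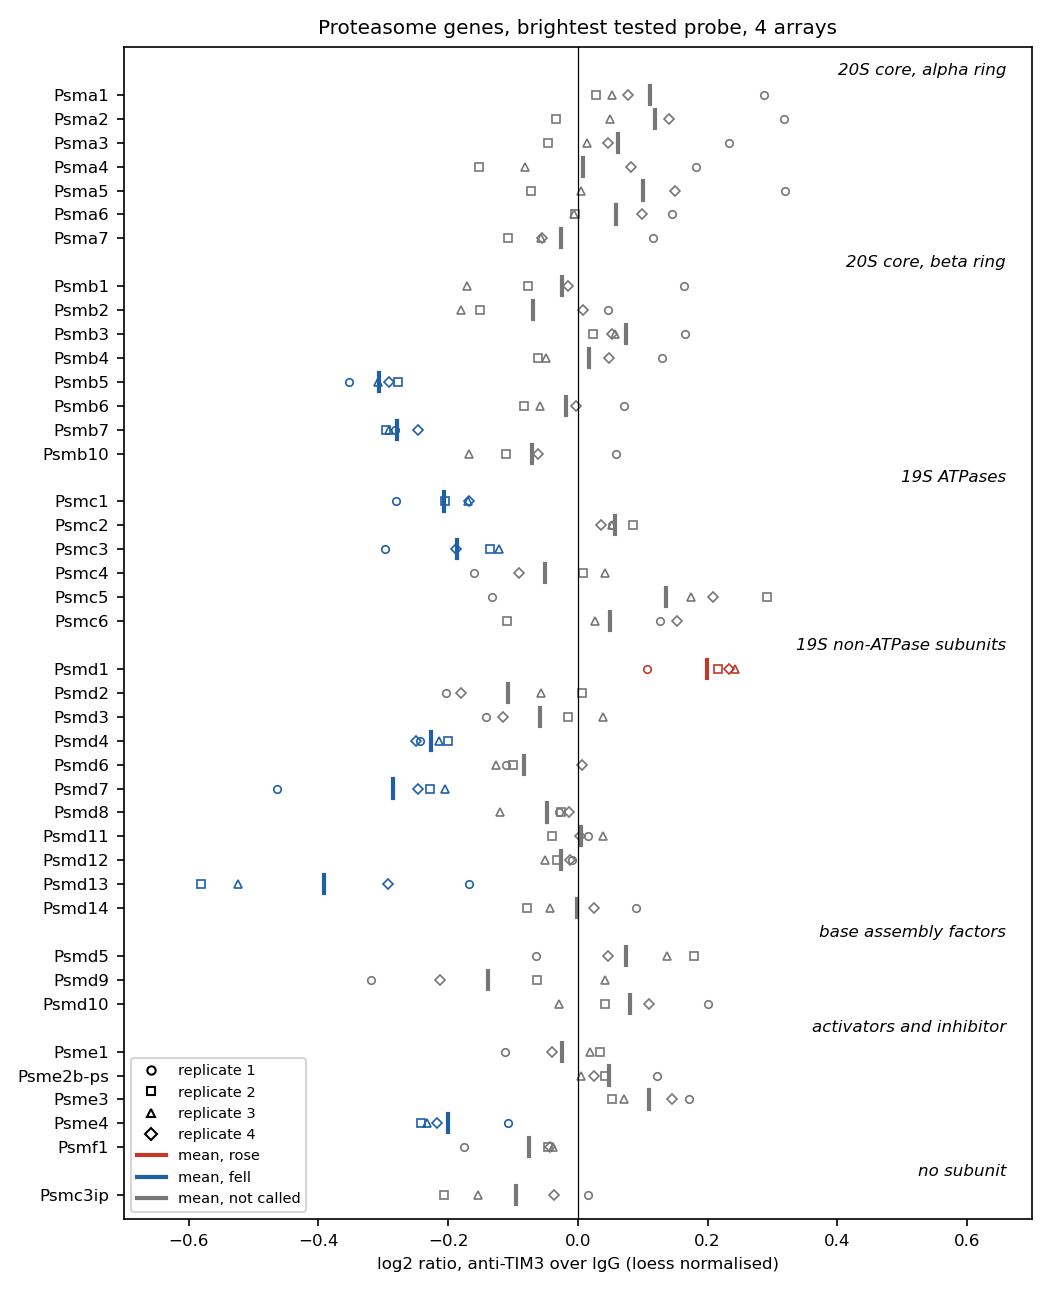
Log2 ratio of anti-TIM3 over IgG for the brightest tested probe of each of 41 proteasome genes, grouped by role; the 4 symbols are the 4 arrays, the vertical bar is their mean, and colour gives limma's call. The fallen genes lie to the left of 0 on every array, most genes straddle 0, and Psmd1 alone is called higher.

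The alpha ring of the core was not called by limma in any probe, and 1 had an unadjusted p under 0.05. Its 9 probes belong to the 7 alpha subunits of the ordinary ring and to Psma8, the subunit used in the testis, whose single probe did not pass the filter. Psma2 had ratios of 0.32, -0.03, 0.05 and 0.14 on replicates 1 to 4, with a mean of 0.12 ± 0.15 (SD, n = 4), a 95% interval from -0.00 to 0.24 and an adjusted p of 0.129. Psma1 had 0.29, 0.03, 0.05 and 0.08, with a mean of 0.11 and an adjusted p of 0.106. In both, replicate 1 was the highest. Psma7 was the lowest, at 0.12, -0.11, -0.06 and -0.06, with a mean of -0.03 and an adjusted p of 0.675. It was above 0 on replicate 1 only, and in the authors' processed signals it was called lower, at -0.20. Psma4, with 2 probes, had brightest-probe ratios of 0.18, -0.15, -0.08 and 0.08, with a mean of 0.01.

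All 7 alpha genes were above 0 on replicate 1, but only 1, 4 and 6 of them were on replicates 2, 3 and 4. Their median was 0.23 on replicate 1 and -0.05, 0.00 and 0.08 on the others. The beta ring also stood highest on replicate 1, with a median of 0.06 against -0.10, -0.17 and -0.01. The medians of the 19S ATPases and of the other 19S subunits were lowest on replicate 1, at -0.15 and -0.11. The medians of core and cap therefore lay on opposite sides of 0 on that array, a difference that was not tested.

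**Figure D2:**
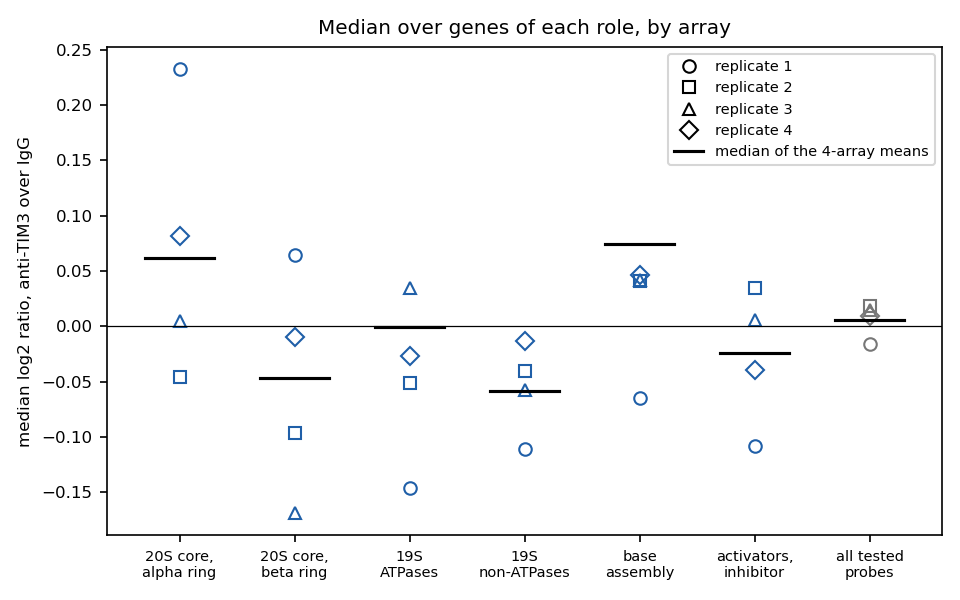
Median log2 ratio over the genes of each role (brightest tested probe), by array, with all tested probes at the right; symbols are arrays and the bar is the median of the 4-array means. Replicate 1 is the highest array for both core rings and the lowest for both 19S groups, while all tested probes stay between -0.02 and 0.02.

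Of the beta ring, 2 of the 3 subunits that cut protein in the standard core fell and the third was not called. Psmb5 carries the chymotrypsin-like site, Psmb7 the trypsin-like site and Psmb6 the caspase-like site. The probe sequences are shown because each of these genes was read by a single probe, so its result is the result of that 60-base stretch. Each has a reading frame with no stop, and all were placed on the mm7 build by the file annotation. The Psmb5 probe lies at chr14:49480764-49480823 (minus strand), the Psmb7 probe spans an intron at chr2:38620757-38641176 (minus strand) and the Psmb6 probe lies at chr11:70609086-70609145 (plus strand).
Psmb5: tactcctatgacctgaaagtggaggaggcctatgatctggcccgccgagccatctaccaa
Psmb7: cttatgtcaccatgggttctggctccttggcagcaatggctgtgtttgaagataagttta
Psmb6: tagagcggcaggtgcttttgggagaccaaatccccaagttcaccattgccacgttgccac

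Psmb5 had log2 signals between 13.72 and 14.37 in the IgG channel and between 13.43 and 14.02 in the anti-TIM3 channel. Its ratios were -0.35, -0.28, -0.31 and -0.29, close together and all below 0. The mean was -0.31 ± 0.03 (SD, n = 4), a signal 0.808 times that of the control, with an adjusted p of 0.000798. Psmb7 had log2 signals of 13.08, 12.50, 12.37 and 12.33 with IgG against 12.80, 12.21, 12.08 and 12.09 with anti-TIM3. Its ratios of -0.28, -0.30, -0.29 and -0.25 were as narrow in their spread. The mean was -0.28 ± 0.02 (SD, n = 4), with an adjusted p of 0.00111. Psmb5 and Psmb7 fell in the authors' processed signals too, by 0.26 and 0.29 on the log2 scale.

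Psmb6 gave a different picture, with ratios of 0.07, -0.08, -0.06 and -0.00 on either side of 0. The mean was -0.02 ± 0.07 (SD, n = 4), with a 95% interval from -0.10 to 0.07 and an adjusted p of 0.744. The intervals of Psmb5, from -0.38 to -0.23, and of Psmb7, from -0.35 to -0.20, lie wholly below that of Psmb6, although the difference between the genes was not tested. Psmb10, which replaces Psmb7 in the interferon-induced core, had 0.06, -0.11, -0.17 and -0.06, with a mean of -0.07 and an adjusted p of 0.239. The 2 other interferon-induced catalytic subunits, outside the set, were dim: Psmb8 had means of -0.11 (adjusted p = 0.0554) and -0.09 (adjusted p = 0.15) on probes above background in the IgG channel on 0 and 1 arrays, and Psmb9 one of -0.04 (adjusted p = 0.417).

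The remaining beta subunits complete the ring, and none of them was called. Psmb2 had 0.05, -0.15, -0.18 and 0.01, with a mean of -0.07. Psmb4 had 0.13, -0.06, -0.05 and 0.05, with a mean of 0.02. Psmb1 had 0.16, -0.08, -0.17 and -0.02, with a mean of -0.02. Psmb3, the highest of the ring, had a mean of 0.07 on its brighter probe and -0.08 on the other. Replicate 1 was the highest array for each of these genes by its brightest probe.

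Among the 6 ATPases of the 19S base, 4 of 10 probes fell and none rose. Over all tested probes 13.6% fell and 14.2% rose, and between 12 and 16 in mean log2 intensity 20.8% fell. By brightest probe, 2 of the 6 ATPase genes fell. Psmc1, whose tail helps to open the core's gate, had ratios of -0.28, -0.20, -0.17 and -0.17. Its mean was -0.21 ± 0.05 (SD, n = 4), with an adjusted p of 0.00453. Psmc3, another subunit whose tail docks on the core, had -0.30, -0.14, -0.12 and -0.19. Its mean was -0.19 ± 0.08 (SD, n = 4), with an adjusted p of 0.0104. Both had all arrays below 0 and their lowest value on replicate 1. The Psmc3 call was lost once trends on brightness and base content were removed.

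Psmc5 was read by 2 probes that did not move together. The sequences of both are shown because the gene's result depends on which is read. The upstream probe, at chr11:106370290-106370489, and the downstream probe, at chr11:106371919-106372103, both span an intron on the plus strand. The capitals mark a stop codon that closes an otherwise open frame in the downstream probe.
Psmc5 upstream: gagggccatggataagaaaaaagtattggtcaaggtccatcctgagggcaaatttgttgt
Psmc5 downstream: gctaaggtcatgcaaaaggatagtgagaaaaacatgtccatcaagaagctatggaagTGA

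The upstream Psmc5 probe fell, with ratios of -0.46, -0.17, -0.21 and -0.24, a mean of -0.27 ± 0.13 (SD, n = 4) and an adjusted p of 0.00564. The downstream probe had -0.13, 0.29, 0.17 and 0.21, a mean of 0.14 ± 0.19 (SD, n = 4) and an adjusted p of 0.132. The first lay below 0 on every array, the second above 0 on all but replicate 1. The downstream probe was higher by 0.41 ± 0.06 (SD, n = 4) and on 4 of 4 arrays. Without replicate 1 it was itself called, at 0.22 with an adjusted p of 0.0152, which would put the probes of 1 gene in opposite directions.

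The probes of Psmc2, annotated to different transcript records, were also split in their calls. Its brighter probe had 0.05, 0.09, 0.05 and 0.04, with a mean of 0.06 and an adjusted p of 0.22. Its dim probe, far down in intensity at 7.6 on the log2 scale, had -0.11, -0.17, -0.06 and -0.26, with a mean of -0.15 and an adjusted p of 0.0266. That call was lost in the authors' processed signals and when replicate 1, 2 or 4 was left out, with adjusted p-values up to 0.108. Psmc4 had 2 uncalled probes with means of -0.05 and -0.12, and Psmc6 had 2 with means of 0.05 and 0.04.

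The non-ATPase subunits of the 19S particle held the set's largest mean ratio and its only rise: 7 of 18 tested probes fell and 1 rose. These shares are 38.9% and 5.56%, against 13.6% and 14.2% of all tested probes. Between 12 and 16 in mean log2 intensity, 20.8% of all tested probes fell. The fallen Psmd13 probe and a fallen Psmd4 probe lie below that range, at 11.2 and 7.7. Uncalled probes of Psmd7 and Psmd12 do too, at 9.6 and 11.7. By brightest probe, 3 of the 11 genes of this role fell and 1 rose. Psmd1 and Psmd2 are the large scaffold subunits of the base, and Psmd2 offers docking sites for proteins that shuttle ubiquitinated substrates and for the deubiquitinase Usp14. The Psmd1 probe rose, and of the Psmd2 probes the dimmer fell and the brighter was not called. The Psmd1 probe is at chr1:86027149-86027208 on the plus strand, and the Psmd2 probes are at chr16:20210118-20210417, spanning an intron, and chr16:20213208-20213267, also on the plus strand. The capitals again mark a stop codon that closes an open frame.
Psmd1: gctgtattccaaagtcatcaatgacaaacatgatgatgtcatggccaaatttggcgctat
Psmd2 upstream: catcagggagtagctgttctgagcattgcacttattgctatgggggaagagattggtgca
Psmd2 downstream: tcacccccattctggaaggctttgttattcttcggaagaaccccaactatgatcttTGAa

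Psmd1 had log2 signals of 13.21, 12.78, 12.52 and 12.48 with IgG and of 13.32, 13.00, 12.76 and 12.71 with anti-TIM3. Its ratios of 0.11, 0.22, 0.24 and 0.23 were all above 0, with replicate 1 the lowest. The mean was 0.20 ± 0.06 (SD, n = 4), a signal 1.15 times that of the control, with an adjusted p of 0.00587. The upstream Psmd2 probe had -0.55, -0.24, -0.33 and -0.50, with a mean of -0.41 ± 0.14 (SD, n = 4), 0.755 times the control, and an adjusted p of 0.00148. The brighter downstream probe, which ends with the stop codon, had -0.20, 0.01, -0.06 and -0.18. Its mean was -0.11 ± 0.10 (SD, n = 4), with an adjusted p of 0.0895. With trends removed this downstream probe was called lower, at -0.15 (adjusted p = 0.0326), but it was not called in the authors' processed signals (adjusted p = 0.078). Replicates 1 and 4 were the lowest for both Psmd2 probes, and the downstream probe was higher on 4 of 4 arrays, by 0.30 ± 0.04 (SD, n = 4).

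Psmd4, a receptor for ubiquitin chains, was the 1 gene of 8 with a call and several tested probes in which all tested probes were called. Its brighter probe had -0.24, -0.20, -0.21 and -0.25, with a mean of -0.23 ± 0.02 (SD, n = 4) and an adjusted p of 0.00233. Its dim probe, annotated to a different transcript record, had -0.09, -0.24, -0.14 and -0.27, with a mean of -0.18 and an adjusted p of 0.0118. The dim probe's call was lost in the authors' processed signals and without replicate 4, where its adjusted p was 0.0532.

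The lid was uneven. Psmd13 had log2 signals of 11.71, 11.41, 11.23 and 11.21 with IgG and of 11.55, 10.83, 10.71 and 10.92 with anti-TIM3. Its ratios were -0.17, -0.58, -0.52 and -0.29, with a mean of -0.39 ± 0.19 (SD, n = 4) and an adjusted p of 0.00367. Replicates 2 and 3 were the lowest, the reverse of the order in Psmd2. Psmd7, the partner of the deubiquitinase Psmd14, had 3 probes, of which 2 fell.

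The brightest Psmd7 probe had -0.46, -0.23, -0.21 and -0.25, with a mean of -0.29 and an adjusted p of 0.00371. Another had -0.21, -0.14, -0.10 and -0.28, with a mean of -0.18 and an adjusted p of 0.0111, and the dimmest had -0.02, -0.13, 0.17 and -0.31, with a mean of -0.07 and an adjusted p of 0.42. The first call was lost in the authors' processed signals (adjusted p = 0.0512) and the other once trends were removed. Psmd14 itself, which removes the chain from the substrate, had 0.09, -0.08, -0.04 and 0.03 on its brightest probe, with a mean of -0.00 and a 95% interval from -0.09 to 0.09.

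Psmd12, a lid subunit with 3 probes, fell on 1 of them. That probe had -0.10, -0.12, -0.12 and -0.20, with a mean of -0.14 and an adjusted p of 0.021, and its call was lost in the authors' processed signals and when replicate 2, 3 or 4 was left out, with adjusted p-values up to 0.088. The other 2 Psmd12 probes had means of -0.03 and 0.00 and were not called. The first of these, the gene's brightest, was called lower in the authors' processed signals, at -0.13 (adjusted p = 0.0487). With trends removed it was also called lower, at -0.13 (adjusted p = 0.0187). Psmd11, a lid subunit that helps hold cap and core together, had 0.02, -0.04, 0.04 and 0.00 on its tested probe, the second highest of these subunits. When trends were removed, the mean of Psmd11 changed sign to -0.14 and the probe was called lower (adjusted p = 0.016). In the authors' processed signals Psmd11 had -0.13 and was not called (adjusted p = 0.0564). Its other probe, which the annotation puts on the opposite strand, did not pass the filter. Psmd3, Psmd6 and Psmd8 had means of -0.06, -0.08 and -0.05 and were not called.

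The factors that help to assemble the base, which leave the finished particle, were not called by limma, and 1 of their 4 probes had an unadjusted p under 0.05. Psmd10 had 0.20, 0.04, -0.03 and 0.11, with a mean of 0.08 and an adjusted p of 0.185. Psmd5 had -0.06, 0.18, 0.14 and 0.05, with a mean of 0.07 and an adjusted p of 0.237. With trends removed Psmd5 was called higher, at 0.14 (adjusted p = 0.037), but it was not called in the authors' processed signals (adjusted p = 0.152). Psmd9 had -0.32, -0.06, 0.04 and -0.21 on its brighter probe, with a mean of -0.14 and an adjusted p of 0.0949, and its other probe had a mean of -0.05. By brightest probe, the arrays of each gene fell on both sides of 0, and replicate 1 was the highest for Psmd10 but the lowest for Psmd5 and Psmd9. The dimmer Psmd9 probe was below 0 on every array.

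Of the alternative caps and the inhibitor, 2 of 10 tested probes fell, 1 in Psme4 and 1 in Psmf1. That is 20%, against 13.6% of all tested probes and 20.8% of those between 12 and 16 in mean log2 intensity. The median intensity of these probes was 11.9, and the fallen Psmf1 probe lies at 9.8. Below 12, 12.1% of all tested probes fell. Psme4 encodes a large nuclear activator that has been linked to acetylated histones. Its brightest probe had -0.11, -0.24, -0.23 and -0.22, with a mean of -0.20 ± 0.06 (SD, n = 4) and an adjusted p of 0.0058. Another 2 tested Psme4 probes had means of -0.11 and -0.06 and were not called, and its dimmest probe did not pass the filter. With trends removed the Psme4 probe at -0.11 was called lower, at -0.12 (adjusted p = 0.0482). Psme3, the nuclear member of the ring-shaped activators, had 0.17, 0.05, 0.07 and 0.15, all above 0. Its mean was 0.11 ± 0.06 (SD, n = 4) with an adjusted p of 0.0502, just past the threshold, and some settings did call it (adjusted p = 0.0428 when both channels had to stand above background).

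Psme1, a ring activator induced by interferon, had -0.11, 0.03, 0.02 and -0.04, with a mean of -0.02. The 2 probes that the array names Psme2b-ps had means of 0.07 and 0.05. The annotation puts them on chromosome 14, where RefSeq has Psme2, and not on chromosome 11, where RefSeq has Psme2b, so signal of these near-identical genes cannot be told apart. None of these probes was called. With trends removed the Psme2b-ps probe with a mean of 0.07 was called higher, at 0.12 (adjusted p = 0.0252).

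Psmf1 encodes a protein that inhibits the isolated core and binds proteasomes for transport. Its sequence is shown because the call rests on 1 of 3 probes, at chr2:151470474-151470533 on the minus strand.
Psmf1: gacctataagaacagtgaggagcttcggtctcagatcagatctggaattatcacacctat
This probe, the 5′-most, had -0.38, -0.24, -0.27 and -0.34, with a mean of -0.31 ± 0.06 (SD, n = 4) and an adjusted p of 0.0012. The brightest Psmf1 probe had -0.18, -0.05, -0.04 and -0.04, with a mean of -0.08 and an adjusted p of 0.159. The 3′-most had 0.04, 0.15, -0.07 and 0.03, with a mean of 0.04 and an adjusted p of 0.55. The called probe was the lowest of the 3 on every array, and it is annotated to a different transcript record from the others.

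Psmc3ip is in the set by its name only: it encodes a partner of a proteasome ATPase's gene product that acts in recombination of meiotic chromosomes. Its 2 probes had means of -0.10 and -0.03 and were not called.

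In 16 genes with several tested probes on 1 strand, Psmc3ip among them, the probe nearest the 3′ end had the higher mean ratio in 11. Whether probe pairs over the whole array show the same was not tested. In Psmc2, Psmc6, Psmd4, Psmd7, Psme4 and Psmf1 the compared probes are annotated to different transcript records, so they need not read 1 transcript. In the text below, 3′-most and 5′-most refer to position only. The 3′-most probe was higher on all 4 arrays in 8 genes and lower on all 4 in 0. The difference, 3′-most minus 5′-most, had a median of 0.06 and ran from -0.21 in Psmd7 to 0.41 in Psmc5. The 3′-most probe was also the brighter one in 10 of the 16 genes, and the 3′-most was higher in 6 of those 10; the part of brightness in the difference was not tested. Next to Psmc5, Psmd2 and Psmf1, whose differences were 0.41, 0.30 and 0.34, came Psmc2 with 0.20 and Psmb3 with 0.15.

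**Figure D3:**
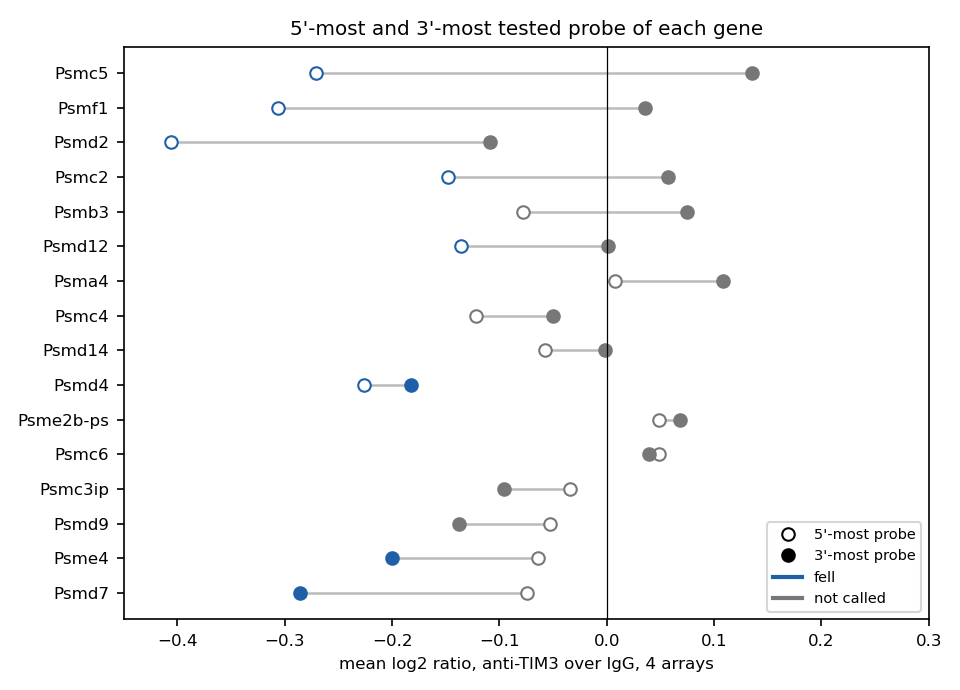
Mean log2 ratio of anti-TIM3 over IgG over 4 arrays for the 5′-most (open) and 3′-most (filled) tested probe of 16 genes; blue marks a fallen probe and grey a probe not called. The 3′-most probe lies to the right of its partner in 11 genes, and in Psmd4 alone both probes are called.

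Proteasome probes were bright, with a median of 13.4 in mean log2 intensity against 8.95 for all tested probes, and the share of probes called depends on brightness. Between 12 and 14, 22.8% of all tested probes fell and 12.7% rose, and of the 25 proteasome probes there 9 fell and 1 rose. Between 15 and 16, 6.90% of all tested probes fell and 41.9% rose, and of the 10 proteasome probes there none was called. Over the whole stretch from 12 to 16, 20.8% of all tested probes fell, against 11 of 47 proteasome probes (23.4%). Below 12, 12.1% of all tested probes fell, and 4 of 14 proteasome probes did. The stretch from 12 to 16 held 1 risen proteasome probe of 47, against 15.7% of all tested probes. The fallen share thus stood above that of all tested probes between 12 and 14 (36.0% against 22.8%) and below it between 14 and 16 (9.09% against 15.0%). The part of brightness in single calls was not tested beyond removing the trend, which kept 14 of the 16.

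**Figure D4:**
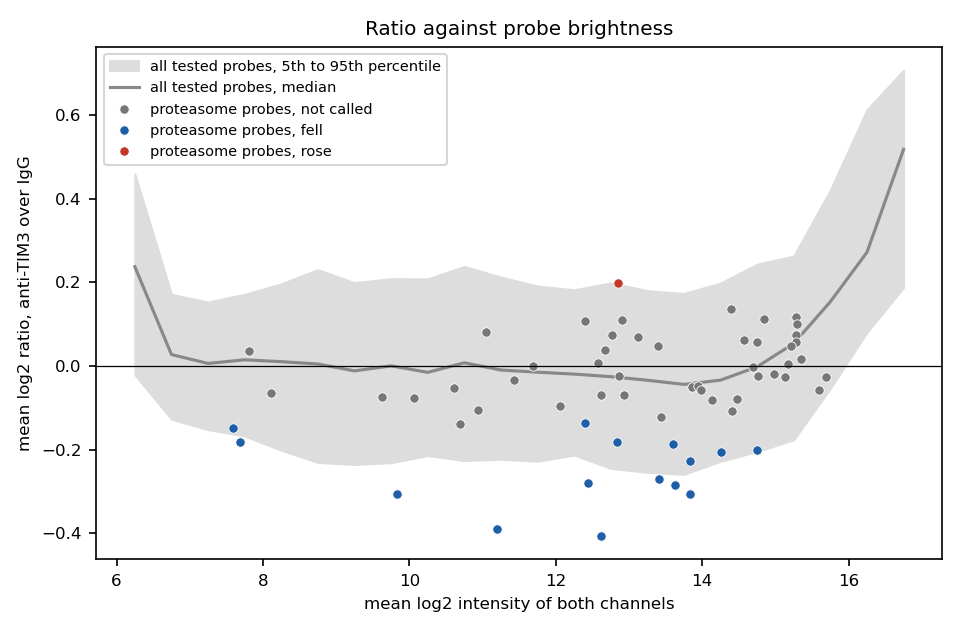
Mean log2 ratio of anti-TIM3 over IgG against mean log2 intensity for the 61 tested proteasome probes, coloured by limma's call, over the median (line) and the 5th to 95th percentiles (grey) of all tested probes in bins of 0.5. The line bends up above 15, where 41.9% of all probes up to 16 rose and no proteasome probe was called.

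Across the 61 probes, the ratios of replicates 2 and 3 had a Pearson r of 0.84 and those of replicates 1 and 4 one of 0.79, while replicates 1 and 2 had only 0.39. Over all tested probes the same pairs had 0.75, 0.71 and 0.55. The points share arrays, dye and probes of the same gene, so these are descriptions. Psmb5 and Psmb7 gave nearly the same value on every array, while Psmd2 was lower on replicates 1 and 4 and Psmd13 lower on replicates 2 and 3.

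RefSeq promoters on GRCm38.p6, 250 bases before to 50 after the start, were found for 34 of 41 genes, Psmc3ip left aside, in 37 entries. NRF1 binds antioxidant response elements, whose core TGACNNNGC was sought on both strands. It was present in 6 of the 37 entries (16.2%), against 12.4% of 32851 promoters: those of Psmb5, Psmb6, Psmc6, Psmd9, Psmd12 and Psme4. The stretch around it is shown for Psmb5, which fell, and Psmb6, which was not called, with the core in capitals. The match begins 47 bases before the start in Psmb5 (chr14:54618004-54618072, minus strand) and 9 bases before it in Psmb6 (chr11:70525318-70525356, plus strand).
Psmb5: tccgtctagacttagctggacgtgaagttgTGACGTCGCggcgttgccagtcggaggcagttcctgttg
Psmb6: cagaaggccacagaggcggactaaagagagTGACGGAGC
The ETS-type core CCGGAAGT, on both strands, was in 9 of the 37 entries (24.3%), against 3.89% of all promoters. Its 8 genes are Psma6, Psmc1, Psmc2, Psmd6, Psmd12, Psmd13, Psme3 and Psme4. Of these, 5 had a fallen probe, as did 10 of all 34 genes with a promoter. In Psmc2 and Psmd12 the fallen probe was not the brightest. The CCAAT box, on both strands, was in 12 entries (32.4%), against 37.4% of all promoters. A fallen probe was found in 3 of the 12 genes with a CCAAT box and in 3 of the 6 with the antioxidant response element core. A link between any of these motifs and the falls was not tested. A match says that these letters are in the window, not that a factor binds there.

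Nfe2l1 itself had ratios of -0.05, 0.09, 0.01 and -0.05, with a mean of -0.00 and an adjusted p of 0.98. Nfe2l2, which encodes a related factor, had a mean of -0.01 (adjusted p = 0.838). Ngly1, the enzyme that strips sugar from NRF1 before it is active, rose by 0.19 on its brighter probe (adjusted p = 0.00919), with all arrays above 0, while its other probe had a mean of 0.01 (adjusted p = 0.854). Of the 3 regulators, 1 was called by its brightest probe, where 27.8% of all tested probes were called. None of the 4 Nfe2l2 probes was called.

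Of 30 other genes of ubiquitin-dependent degradation, 29 were tested, and by brightest probe 10 rose, 5 fell and 14 were not called, with a median ratio of 0.01, where 14.2% and 13.6% of all tested probes rose and fell. In the authors' processed signals 4 rose and 1 fell, and with trends removed 6 and 2. Rps27a, which encodes ubiquitin fused to a ribosomal protein, had 0.60, 0.23, 0.32 and 0.25, with a mean of 0.35 ± 0.17 (SD, n = 4) and an adjusted p of 0.00395. Ubb, a polyubiquitin gene, had 0.33, 0.32, 0.27 and 0.22, with a mean of 0.28 ± 0.05 (SD, n = 4) and an adjusted p of 0.00131. Both were above 0 on all 4 arrays, and both probes were among the brightest, with Rps27a at 15.96 and Ubb above 16 on the log2 scale. Over 16, a call of higher was made for 89.6% of the tested array. With the authors' processed signals neither was called: Ubb had -0.01 (adjusted p = 0.827) and Rps27a 0.20 (adjusted p = 0.072). With trends on brightness and base content removed, Rps27a had 0.15 (adjusted p = 0.0477) and Ubb 0.09 (adjusted p = 0.0832).

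The chaperones that build the core were called in all 4 tested genes, where 27.8% of all tested probes were called, but every one of these calls was lost in the authors' processed signals and again with trends removed. Psmg1, Psmg2 and Psmg3, which pair and order the alpha subunits, fell, with means of -0.11, -0.16 and -0.14 and adjusted p-values of 0.0477, 0.0217 and 0.031. In the authors' processed signals their adjusted p-values were 0.346, 0.0836 and 0.117, and with trends removed 0.131, 0.13 and 0.849, with Psmg3 at -0.012. The calls were also lost when replicate 2 or 3 was left out, and those of Psmg1 and Psmg3 without replicate 4. A second Psmg2 probe had a mean of 0.04 and was not called. Pomp, which acts later on the beta ring, rose by 0.15 (adjusted p = 0.0231), but had 0.05 in the authors' processed signals (adjusted p = 0.341) and 0.02 with trends removed (adjusted p = 0.625), and lost its call at an offset of 10 and without replicate 1 or 3. Of further proteasome components, Sem1, a small lid protein read by a probe above 16 in log2 intensity, rose by 0.33 (adjusted p = 0.00398). In the authors' processed signals it had 0.075 (adjusted p = 0.335), and with trends removed 0.099 (adjusted p = 0.127). Ecpas, a proteasome adaptor, had 5 tested probes, of which 2 fell. Its brightest fell by 0.20 on the log2 scale (adjusted p = 0.0143), a call lost in the authors' processed signals (adjusted p = 0.054) and without replicate 1. The other fallen Ecpas probe had a mean of -0.30 (adjusted p = 0.00212) and was also called lower in the authors' processed signals, at -0.34 (adjusted p = 0.0193). The 3 uncalled probes had means of 0.09, 0.11 and 0.04. Of these, the probe at 0.11 was called higher in the authors' processed signals, at 0.29 (adjusted p = 0.0376). Among the shuttles, Ubqln4, which carries substrates to the cap, had -0.48, -0.34, -0.34 and -0.48, with a mean of -0.41 ± 0.08 (SD, n = 4) and an adjusted p of 0.000502. Its relative Ubqln2 rose by 0.30 (adjusted p = 0.00726), with all arrays of each gene on 1 side of 0. A further relative, Ubqln1, had 4 tested probes with calls in both directions. Its brightest rose by 0.15 (adjusted p = 0.0141) and another had a mean of -0.31 (adjusted p = 0.00602). By brightest probe, 2 of the 9 genes in this group rose, 1 fell and 6 were not called.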

How the data were processed

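Total RNA of B16-F10 cells was measured on 4 Agilent 2-colour arrays. Per the file headers, Agilent Feature Extraction 9.5.1.1 made the deposited spot intensity of each channel, linear and unnormalised, and processed intensity that the authors' software had background-subtracted, detrended and dye-normalised; the submitters' processing notes name version 9. The deposited log10 ratios (Cy5 over Cy3) of the files and of the value table were equal within 1e-06 in all 256 array spots of these genes. Mean signals were corrected with the median local background (normexp, offset 50) and normalised by loess within each array, giving control spots no weight and dropping outlier spots. A probe entered the test if at least 3 of 4 arrays had it well above background in 1 or both channels. The test was made with limma 3.58.1 in R 4.3.3 (lmFit, eBayes, two-sided, against 0, Benjamini-Hochberg over 26545 probes). The array pairs each treated sample with its control. Intervals are limma's 95% intervals, not adjusted.

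The members and the lists were chosen with earlier results of these data known. The genes named are all with a called probe, the 2 highest and 2 lowest genes of each role, the catalytic subunits and, of the pathway list, the largest calls save those not reported, Psmb8 and Psmb9; others named, such as the regulators, were chosen after their values were seen. Probe names follow the files, checked against RefSeq. Ratios of different probes are compared only as ratios, since a probe's brightness is no level of RNA. The number of arrays limits the precision. The fit was tested on simulated data. Some genes of the pathway list are counted but not reported by name here.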

Additional observations from a re-analysis of the deposited data

Results flagged for a closer look

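In 4 of 79 values examined, 1 array lay far from the other 3, where chance puts about 1 in 20. Psmd8 had -0.12 on replicate 3, with the others between -0.03 and -0.01. The brightest probe of Psmd7, the lid partner of Psmd14, had -0.46 on replicate 1, with the others between -0.25 and -0.21. The brightest probe of the inhibitor Psmf1 had -0.18 on replicate 1, with the others between -0.05 and -0.04. The median of the base assembly factors was -0.065 on replicate 1 and between 0.041 and 0.047 on the others.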

How the results depend on the processing

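Counts below are of 1 risen and 15 fallen probes, 1 and 8 genes by brightest probe, and 10 and 5 pathway genes, with a median of -0.02 over member genes. Median centring in place of loess gave 0 calls in each and a median of 0.46; of the values called with loess, 14 then changed sign, Psmc1 0.30, Psme4 0.35, Psmd4 0.25, Psmc5 0.17, Psmb5 0.17, Psmc3 0.27, Psmb7 0.084, Psmd7 0.17 and 0.21, Psmd12 0.22, Psmg1 0.29, Psmg2 0.20, Psmg3 0.22 and Ecpas 0.19. The cause was not tested. The authors' processed signals gave 4 and 1 pathway genes, a median of -0.068 and Ubb at -0.012. Removing trends gave 4 risen probes, 3 risen genes, 6 and 2 pathway genes and Psmd11 at -0.14. Requiring both channels, eBayes with trend and robust, and array weights each gave 2 risen probes and 2 risen genes, and averaging a gene's probes gave 2 risen genes. Leaving out probes over 15 gave 4 risen pathway genes and a median of -0.069. Without the replicate block that pairs the channels of an array there were 0 risen and 5 fallen probes, 0 and 2 genes, and 5 and 1 pathway genes. A minimum change of 1.2-fold left 0 probes, 0 genes and 1 risen and 0 fallen pathway genes. Leaving out 1 replicate gave 1 to 2 risen and 12 to 16 fallen probes, 1 to 2 and 8 to 9 genes, 7 to 9 and 2 to 5 pathway genes, and medians from -0.032 to -0.0075. An offset of 10, no filter and keeping outlier spots left these counts within 1.5 times.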
